A study of Mus musculus with 18 samples.

Results

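The GTPases of immunity-associated proteins (GIMAPs) were followed in activated CD8+ T cells given 5 cytokines of the common gamma chain family. The members were taken by gene name, Gimap1, Gimap3, Gimap4, Gimap5, Gimap6, Gimap7, Gimap8 and Gimap9, and all 8 had a probe set among the 18194 genes measured. Each gene is described by its main probe set, whose mean over the 18 arrays was the highest among the probe sets of that gene, and 11 probe sets of the array carry the name of a member. All 8 members lay above the background level of 7.17 on the log2 scale, the 95th percentile of 34 genes of other tissues. Of these 34 genes, 3 passed the level themselves, among them Mbp (11.16 in Media Control) and Krt10 (8.36). The list is thus not silent in these cells, and the level is an estimate. That level was passed by 8678 of all genes.

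The cells were naive CD8 T cells from the spleens of male OT-I Thy1.1 TCR Tg mice, which all carry 1 T cell receptor for the ovalbumin peptide SIINFEKL. In every group they were primed for 48 hours with peptide-pulsed and irradiated splenocytes of wild-type C57BL/6 mice, and the viable cells were enriched over Ficoll. They were then cultured for 24 hours in media alone (Media Control) or with 1 of the cytokines IL-21, IL-15, IL-7, IL-4 and IL-2 at a dose of 100 ng/ml. Each group had 3 biological replicates and 1 Affymetrix mouse array for each, with RNeasy extraction in replicates 1 and 2 and TRIzol extraction in replicate 3. The ages of the mice, and whether cells of several mice were pooled, are not given in the sources used here. The irradiated splenocytes could leave RNA in the cultures, and their markers are given with the IL-2 result.

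GIMAP proteins bind guanine nucleotides through a domain of their own type, and several of them sit on the membranes of cell organelles. They are made mostly in lymphocytes, where they are known for roles in survival and death. The cytokines all signal through receptors that share the common gamma chain. These receptors pass the signal on through STAT transcription factors.

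The values are log2 signals after quantile normalization of the 18 arrays. On the deposited scale, the replicate 3 arrays of 3 groups (IL-15, IL-2 and Media Control) lay lower throughout, with medians of 4.47 to 4.52 against 5.76 to 5.84 in the other arrays. The median change of all genes on that scale was 0.43 in the IL-4 group, 0.41 in the IL-7 group and 0.43 in the IL-21 group, and after quantile normalization it lay between -0.02 and 0.01 for the 5 cytokines. Changes are differences of group means from Media Control with their standard error (SE), tested by limma over all genes with adjusted p under 0.05 as the threshold. Because arrays with the same replicate number moved together, a blocked adjusted p, from a fit that takes the replicate number into account, is given where it changes a call. The number of arrays, 3 per group, limits the precision.

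IL-2 lowered 5 of the 8 GIMAP genes, Gimap3, Gimap4, Gimap5, Gimap6 and Gimap8, and raised none. All 8 had a negative change, from -0.38 for Gimap7 to -1.26 for Gimap6, and the IL-2 group had the lowest mean of the 6 groups for every member. The share of all genes with their lowest mean in the IL-2 group was not counted. The 5 calls stand against 8.0% of all genes lowered and 7.83% raised by IL-2. With the replicate block all 8 members were lower, against 15.1% of all genes lower and 15.5% higher. The median change was -0.82 over the members and 0.01 over all genes. In RNA of a whole culture, fewer cells that express a gene and less of its RNA per cell cannot be told apart.

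**Figure D1:**
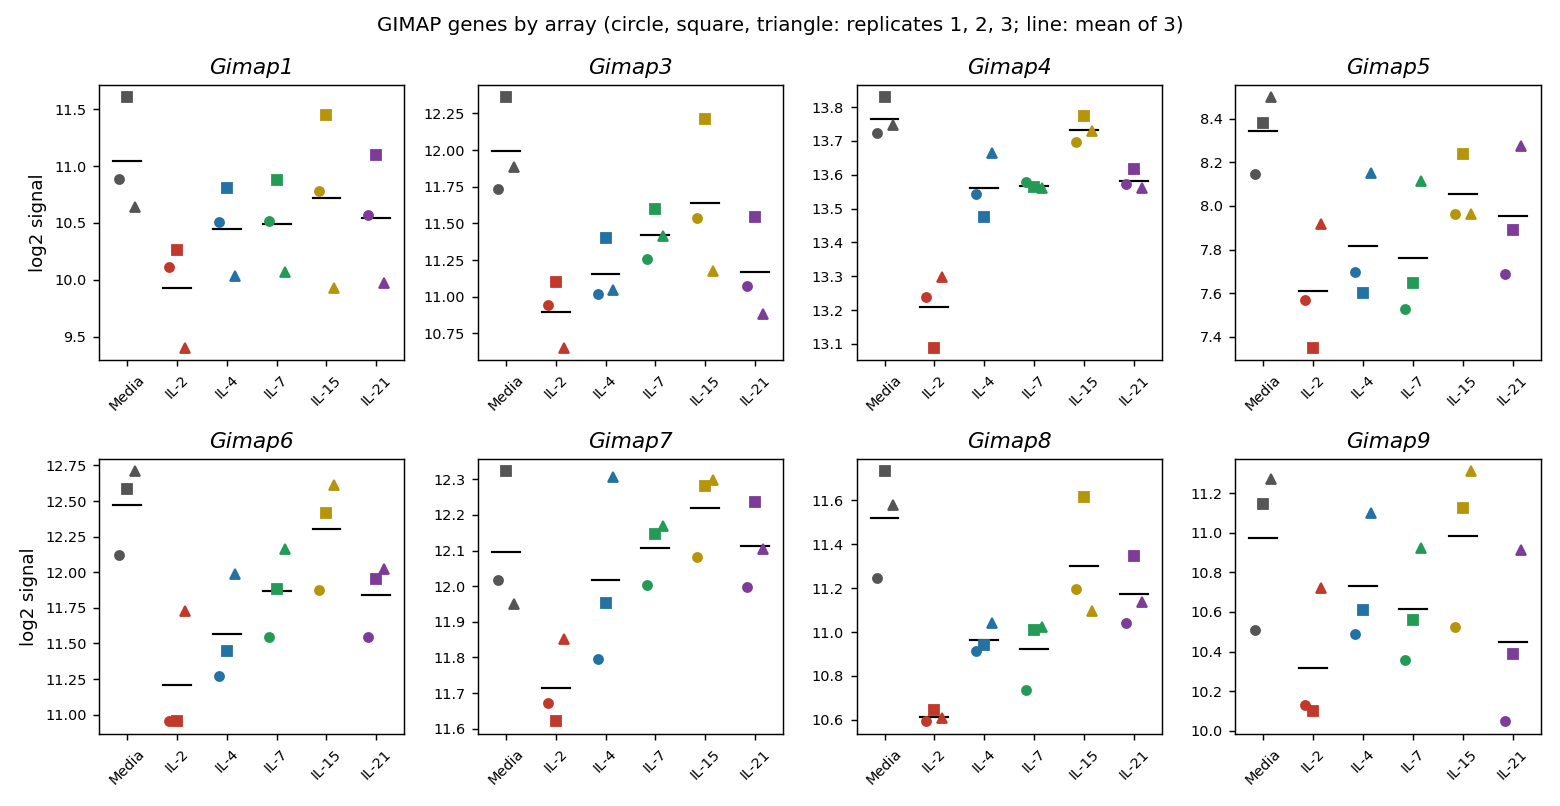
Log2 signal after quantile normalization (vertical axis) of each GIMAP gene in the 6 groups (horizontal axis), with replicates 1, 2 and 3 as circles, squares and triangles and the mean of 3 as a line. The IL-2 mean is the lowest in all 8 panels, and the 3 IL-2 arrays lie below the 3 Media Control arrays for every gene except Gimap9.

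Gimap5 is the member whose loss causes lymphopenia in rodents. Its log2 signal was 8.15, 8.38 and 8.50 in replicates 1, 2 and 3 of Media Control and 7.57, 7.35 and 7.91 with IL-2. The groups did not overlap, and the IL-2 mean was 60.3% of the control on the linear scale (change -0.73, SE 0.21, adjusted p = 0.0221). This call did not hold without Media Control replicate 2 (adjusted p = 0.0756) or 3 (0.0780), or without IL-2 replicate 1 (0.0729) or 2 (0.104), and it was also lost when replicate 1 (0.158) or 2 (0.367) was left out of all groups.

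Gimap1 is needed for the upkeep of mature lymphocytes. It read 10.89, 11.60 and 10.64 in Media Control and 10.11, 10.27 and 9.40 with IL-2, with no overlap. Replicate 2 was the highest and replicate 3 the lowest array in every group, so the spread within a group was wide. The change of -1.12 (SE 0.39) had an adjusted p of 0.0673, and of 1.55e-05 with the replicate block. Without the block, Gimap1 passed among genes above background only (adjusted p = 0.0369) and with replicate 3 left out of all groups (0.0261).

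Gimap3, which is close in sequence to Gimap5 and is known to affect the inheritance of mitochondrial DNA, fell to 46.8% of the control. It read 11.73, 12.36 and 11.89 in Media Control and 10.94, 11.10 and 10.65 with IL-2. The groups did not overlap, and the change was -1.09 (SE 0.25, adjusted p = 0.00583). It stayed past the threshold with any 1 array of these groups left out, and missed it when replicate 1 was left out of all groups (adjusted p = 0.0952).

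Gimap4, which has been linked to T cell death, had the smallest spread between replicates. It read 13.72, 13.83 and 13.75 in Media Control and 13.24, 13.09 and 13.30 with IL-2. The fall to 68.0% of the control was small and clear of the replicate spread (change -0.56, SE 0.09, adjusted p = 0.000713).

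Gimap6 encodes a partner of GABARAPL2, a protein of the ATG8 family that works in autophagy. It showed the largest fall of the members, to 41.7% of the control. The log2 signal was 12.12, 12.58 and 12.71 in Media Control and 10.96, 10.95 and 11.73 with IL-2. Even the highest IL-2 array lay below the lowest control array (change -1.26, SE 0.27, adjusted p = 0.00378).

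Gimap8 has several GTPase domains in 1 chain. Its IL-2 arrays lay close together at 10.59, 10.64 and 10.61, below the control arrays at 11.25, 11.73 and 11.58. The IL-2 mean was 53.4% of the control (change -0.91, SE 0.15, adjusted p = 0.000726). The calls of Gimap4, Gimap6 and Gimap8 held with any 1 array of the IL-2 and control groups left out. With a replicate number left out of all groups, Gimap8 stayed past the threshold, while Gimap4 missed it without replicate 1 (adjusted p = 0.0618) or 2 (0.0784) and Gimap6 without replicate 2 (0.187).

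With all genes and arrays, Gimap7, a GTPase found on lipid droplets, and Gimap9 passed the threshold with IL-2 only when the block was used. Without the block, Gimap7 passed among genes above background only (adjusted p = 0.0451) and with replicate 3 left out of all groups (0.0213). Gimap7 read 12.02, 12.32 and 11.95 in Media Control and 11.67, 11.62 and 11.85 with IL-2 (change -0.38, SE 0.14, adjusted p = 0.0883, and 0.0197 with the block). Gimap9 read 10.51, 11.15 and 11.27 in Media Control and 10.13, 10.10 and 10.72 with IL-2 (change -0.66, SE 0.28, adjusted p = 0.149, and 0.000526 with the block). Gimap9 was the only member whose IL-2 and control arrays overlapped. The other 7 did not overlap, against 12.4% of all genes that lay wholly lower with IL-2.

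Within a replicate number, IL-2 was below Media Control in all 3 pairs for every member. The share of all genes lower in all 3 pairs was not counted. The RNeasy pairs alone gave mean differences from -0.52 for Gimap7 to -1.40 for Gimap6, and the TRIzol pair gave differences from -0.10 for Gimap7 to -1.23 for Gimap1 and Gimap3. Both extractions therefore gave a negative difference for each member. On the deposited scale, where 1 array of each group lies lower, none of the 8 passed the threshold, and 1 passed with the replicate block.

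**Figure D2:**
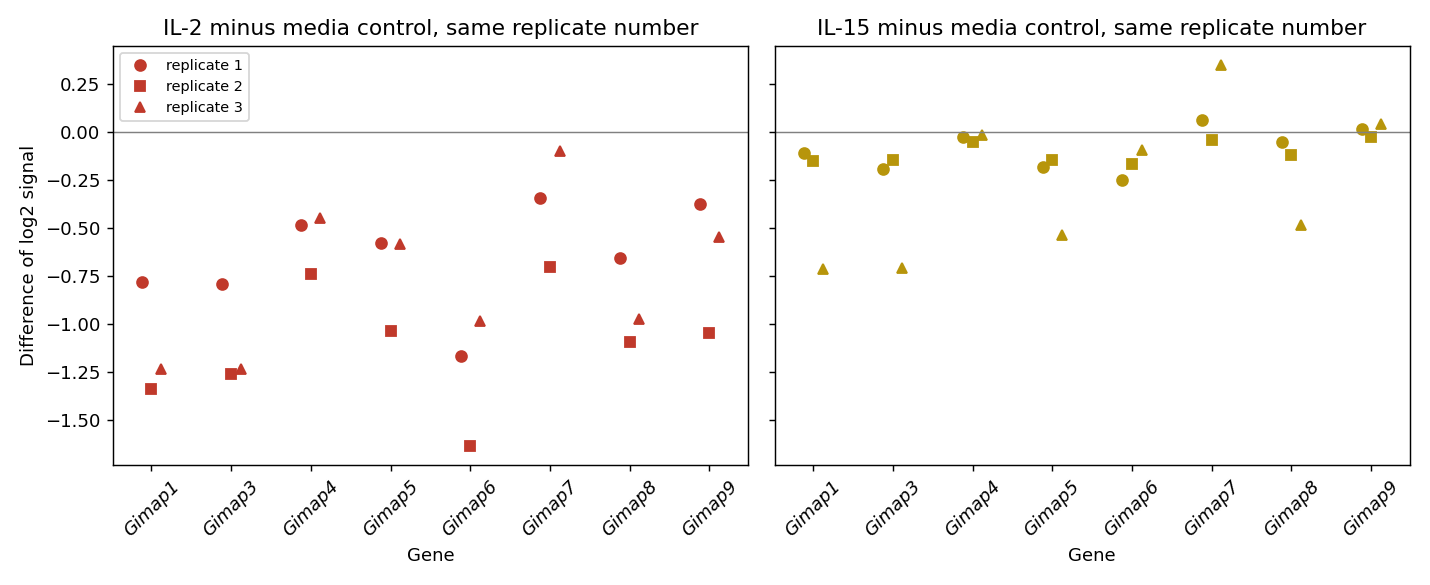
Difference of log2 signal between a cytokine array and the Media Control array of the same replicate number (vertical axis) for each GIMAP gene (horizontal axis), for IL-2 on the left and IL-15 on the right, with 1 symbol per replicate. All 24 points lie below 0 with IL-2, from -0.10 to -1.63, while with IL-15 points lie on both sides of 0.

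The cultures were checked with markers of T cells and of the other cells they could hold. All 9 measured T cell markers lay above the background level, and 6 of them fell with IL-2, among them Cd5 (change -1.51, adjusted p = 8.75e-06) and Cd3e (-1.17, adjusted p = 0.000662), and 7 were lower with the block. Their median change with IL-2 was -0.81, near the -0.82 of the GIMAP genes. The summed linear signal of the T cell markers ranged from 49910 to 60800 in Media Control and from 31260 to 39500 with IL-2. The sum was thus lower in the group where the GIMAP genes were lowest. For IL-4 it was 40760 to 48280, for IL-7 41740 to 48790, for IL-15 47660 to 55730 and for IL-21 46800 to 53240. Cd8a read 11.76 in Media Control and 11.15 with IL-2 (adjusted p = 0.131, and 0.000173 with the block), and Thy1 read 12.87 and 12.81.

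Markers of B cells, which also make GIMAP proteins, were near background. Of 11 measured, only Cd79b had a group mean above that level, while Ms4a1 and Pax5 lay below it in all groups. IL-2 lowered 4 of the 11. The B cell sum ranged from 576.8 to 664.6 in Media Control, 379.1 to 518.5 for IL-2, 425.2 to 473.7 for IL-4, 419.7 to 443.8 for IL-7, 535.6 to 580.7 for IL-15 and 388.9 to 441.7 for IL-21. Of 13 myeloid and dendritic cell markers only Lyz2 passed the background level. Lyz2 read 9.34 in Media Control and 6.42 with IL-2 (change -2.93, SE 1.00, adjusted p = 0.0609, and 4.2e-05 with the block). IL-2 lowered 1 of the 13, Itgax (change -1.42, adjusted p = 0.00979), which lay below background. The sum of these markers ranged from 692.6 to 3664 in Media Control, 499.7 to 557.9 for IL-2, 552.5 to 725.5 for IL-4, 527.1 to 758.9 for IL-7, 532.8 to 1704 for IL-15 and 572.2 to 1093 for IL-21. The NK cell list had 2 of 5, the CD4 T cell list 1 of 4 and the red cell list 0 of 3 genes above background, and the NK sum was highest with IL-4, at 929.3 to 1165 against 316.8 to 476.6 in Media Control. Within that list Eomes, a transcription factor gene that CD8 T cells also express, went from 7.90 to 9.92 with IL-4 (change 2.02, adjusted p = 0.00132). Klre1 fell from 6.98 to 5.76 (change -1.22, adjusted p = 0.00766). Klre1, Ncr1, Klra8 and Klra1 all lay below background in both groups. The part of these cells in the GIMAP values was not tested.

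IL-4 lowered 3 GIMAP genes, Gimap3, Gimap6 and Gimap8, and raised none, against 5.10% of all genes lowered and 3.98% raised. The changes of all 8 members were negative, with a median of -0.54 against 0.00 over all genes. Gimap6 read 11.27, 11.44 and 11.99 with IL-4 (change -0.90, SE 0.27, adjusted p = 0.0455), Gimap3 read 11.02, 11.40 and 11.05 (change -0.84, SE 0.25, adjusted p = 0.0449) and Gimap8 read 10.91, 10.94 and 11.04 (change -0.56, SE 0.15, adjusted p = 0.0321). These 3 and Gimap4 lay wholly below their control arrays, against 11.9% of all genes. With the replicate block Gimap1 (adjusted p = 0.00412) and Gimap5 (0.0117) were lower as well, which made 5 of 8 against 12.9% of all genes lower and 12.9% higher.

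The IL-4 calls lay close to the threshold. No member passed without Media Control replicate 2 or 3 or without IL-4 replicate 1 or 2, and only Gimap6 passed without IL-4 replicate 3. On the deposited scale none passed, with or without the block.

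IL-7 gave no call in either direction, against 0.747% of all genes lowered and 0.934% raised. Of the 8 members 4 had an unadjusted p under 0.05, as had 14.2% of all genes. The changes of 7 members were negative and the median was -0.56, against -0.02 over all genes. Gimap8 came nearest, at 10.73, 11.01 and 11.02 (change -0.60, SE 0.15, adjusted p = 0.0623, and 0.0239 without Media Control replicate 1). Gimap3, Gimap4, Gimap5 and Gimap8 lay wholly below their control arrays, against 10.1% of all genes. With the replicate block Gimap1, Gimap3, Gimap5, Gimap6 and Gimap8 were lower, with adjusted p from 0.00326 to 0.0119, against 8.01% of all genes lower and 8.34% higher.

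IL-21 likewise gave no call, against 3.29% of all genes lowered and 3.39% raised, with 3 members at an unadjusted p under 0.05 (17.6% of all genes). Gimap3 had the largest change, with arrays at 11.07, 11.55 and 10.88 (change -0.83, SE 0.25, adjusted p = 0.0586, and 0.0367 without IL-21 replicate 2). Gimap3, Gimap4 and Gimap6 lay wholly below their control arrays, against 10.6% of all genes. The 3 IL-21 arrays of Gimap7 lay within the range of its controls. With the block Gimap1, Gimap3, Gimap6, Gimap8 and Gimap9 were lower, with adjusted p from 0.000474 to 0.0424, against 10.5% of all genes lower and 10.6% higher. The median change of the members was -0.44, against -0.01 over all genes.

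With IL-15 the median change of the GIMAP genes was -0.19, against -0.01 over all genes. No member passed the threshold without the block or with it, where the lowest adjusted p was 0.487, and 0% of all genes passed as higher or lower without the block or with it. No member had an unadjusted p under 0.05, as 390 of all genes (2.14%) did. The changes ran from -0.35 (95% interval -0.87 to 0.17) for Gimap3 to 0.12 (-0.18 to 0.43) for Gimap7. Compared directly, Gimap3 was higher with IL-15 than with IL-2 by 0.74 (SE 0.25). That difference missed the threshold (adjusted p = 0.07995) and passed with the block (0.000825). No member's IL-15 arrays lay wholly below its control arrays, against 1.60% of all genes. For Gimap1, Gimap3, Gimap5 and Gimap8 the TRIzol pair gave larger falls, from -0.49 to -0.71, than the mean of the RNeasy pairs, from -0.09 to -0.17.

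**Figure D3:**
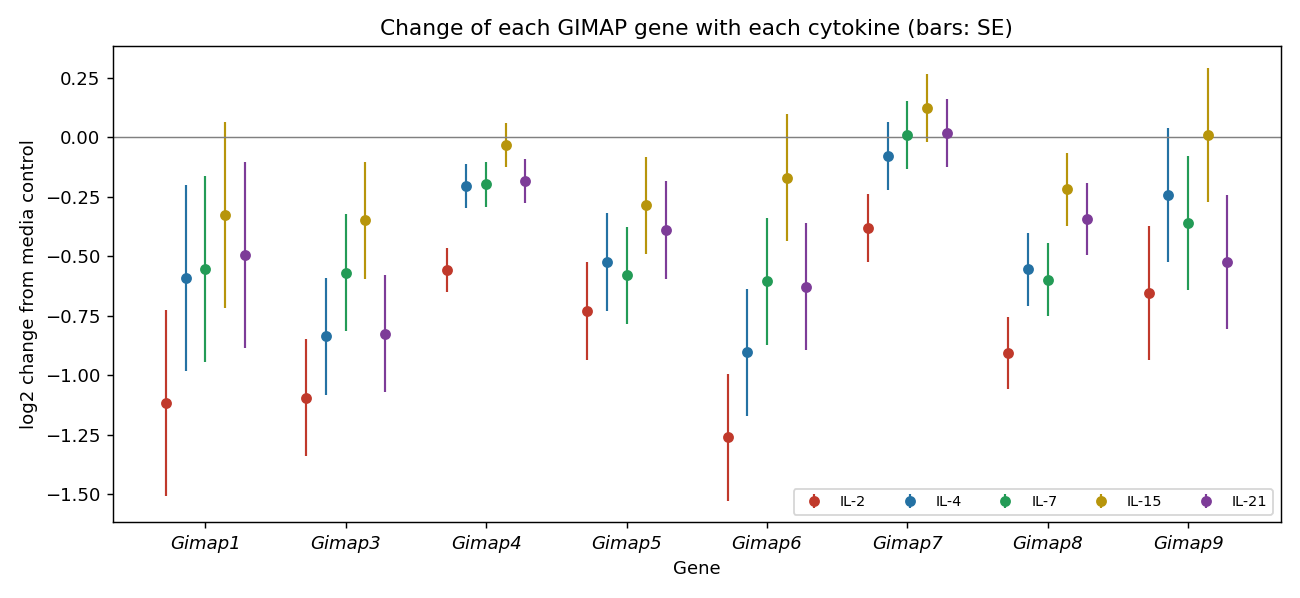
Log2 change from Media Control with its SE (vertical axis) for each GIMAP gene (horizontal axis) and each cytokine, 3 arrays per group. The IL-2 points lie lowest for all 8 genes, and the IL-15 points lie between -0.35 and 0.12.

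The cytokines were also compared with each other, in 10 pairs or 80 tests over the 8 members, each adjusted over all genes of its pair. There were 6 calls, all of them against IL-2. Their number was 2 without IL-2 replicate 1 or 2, 3 without IL-15 replicate 2, and 0 when replicate 1 or 2 was left out of all groups. Gimap4, Gimap6, Gimap7 and Gimap8 were higher with IL-15 than with IL-2, against 4.35% of all genes. Gimap6 stood at 11.87, 12.42 and 12.61 with IL-15 and was 2.13-fold higher than with IL-2 (difference 1.09, SE 0.27, adjusted p = 0.0173). Gimap8 read 11.19, 11.61 and 11.09 with IL-15, above its 3 IL-2 arrays (difference 0.69, SE 0.15, adjusted p = 0.00996). Gimap4 was 1.44-fold higher (adjusted p = 0.00236) and Gimap7 1.42-fold higher (adjusted p = 0.0378), although Gimap7 was not called against Media Control.

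Gimap4 (difference 0.37, SE 0.09, adjusted p = 0.0239) and Gimap8 (0.56, SE 0.15, adjusted p = 0.0373) were higher with IL-21 than with IL-2, against 3.71% of all genes. No member passed for IL-4 or IL-7 against IL-2, where 1.10% and 0.896% of all genes were higher. With the replicate block 26 of the 80 tests passed. All 8 members were then higher with IL-15 than with IL-2 (10.9% of all genes), 5 with IL-7 (5.91%), 5 with IL-21 (10.8%) and 3 with IL-4 (4.98%), while Gimap3 and Gimap6 were higher with IL-15 than with IL-4 (7.48%) and Gimap3, Gimap6 and Gimap9 were lower with IL-21 than with IL-15 (5.99%). The pairs share arrays, so these counts do not add up as separate evidence.

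Ordered by mean, the levels ran from Media Control through IL-15 down to IL-2 for 6 of the 8 members. Between these ends, IL-21 stood above IL-4 and IL-7 for Gimap1, Gimap4, Gimap5 and Gimap8, and for Gimap3 and Gimap6 the order was IL-7, IL-21 and IL-4. IL-15 stood first for Gimap7 and Gimap9, by 0.11 over IL-21 and by 0.01 over Media Control. No pair of neighbours in any of these orders passed the threshold without the block. The nearest was Gimap4 between IL-4 and IL-2 (difference 0.35, SE 0.09, adjusted p = 0.0695). With the block, the step from IL-4 to IL-2 passed for Gimap4 (adjusted p = 0.0108) and Gimap1 (0.0199), and the other pairs of neighbours did not pass in either fit. A test over the 6 groups at once found 4 members that differed, Gimap3 (adjusted p = 0.0446), Gimap4 (0.00583), Gimap6 (0.0249) and Gimap8 (0.00643), against 13.9% of all genes. All 8 passed with the block, against 35.7%. Without the block, 2 passed without Media Control replicate 2 or 3 or IL-2 replicate 1 or 2, and 0 when replicate 1 or 2 was left out of all groups.

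After the means of each replicate number were removed, the 8 members went together over the 18 arrays. The 28 correlations between members ran from 0.57 (Gimap3 with Gimap7) to 0.97 (Gimap1 with Gimap8), with a median of 0.84. The arrays are shared by all members, so these values are a description. A part of the likeness of Gimap3 and Gimap5 could come from probes that bind both transcripts, and the main probe set of Gimap4 is of the array's class that can bind more than 1 transcript. Neither was tested.

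A second probe set exists for 3 members, and all 3 had negative changes with IL-2. In a fit of all probe sets, the second of Gimap6 went from 9.25 to 7.52 (change -1.73, SE 0.25, adjusted p = 0.00034) and that of Gimap4 from 13.26 to 12.48 (change -0.78, SE 0.16, adjusted p = 0.00441). That of Gimap7 lay about the background level, at 7.29 in Media Control and 6.87 with IL-2 (change -0.42, SE 0.28, adjusted p = 0.489).

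In the mouse genome the 8 members form an unbroken cluster on GRCm38.p6, chr6:48647186-48770851, a stretch of 123.7 kb that holds 8 protein-coding genes of the annotation, all of them members. Their order is Gimap8, Gimap9, Gimap4, Gimap6, Gimap7, Gimap1, Gimap5 and Gimap3. The members with the larger IL-2 changes were not next to each other, with Gimap7 (-0.38) lying between Gimap6 (-1.26) and Gimap1 (-1.12). On the Gimap8 side the nearest neighbours with a probe set, Zfp775 and Repin1, which both encode zinc finger proteins, had changes of 0.62 (SE 0.28, adjusted p = 0.184, and 0.00289 with the block) and 0.50 (SE 0.12, adjusted p = 0.00874). Repin1 was thus called as higher with IL-2. Beyond them Lrrc61 had a difference of -0.42 (SE 0.26), with an adjusted p of 0.384, or 0.0246 with the block. On the Gimap3 side the membrane protein genes Tmem176b and Tmem176a, 63.0 and 70.6 kb away, had changes of -0.38 (SE 0.56, adjusted p = 0.863, and 0.0232 with the block) and -0.39 (SE 0.38, adjusted p = 0.696). The other 5 neighbours lay below the background level. Gpnmb, 265.7 kb away on the Gimap3 side, was among them, at 7.14 in Media Control and 6.09 with IL-2. Its change was -1.05 (SE 0.59, adjusted p = 0.316, and 0.0293 with the block).

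**Figure D4:**
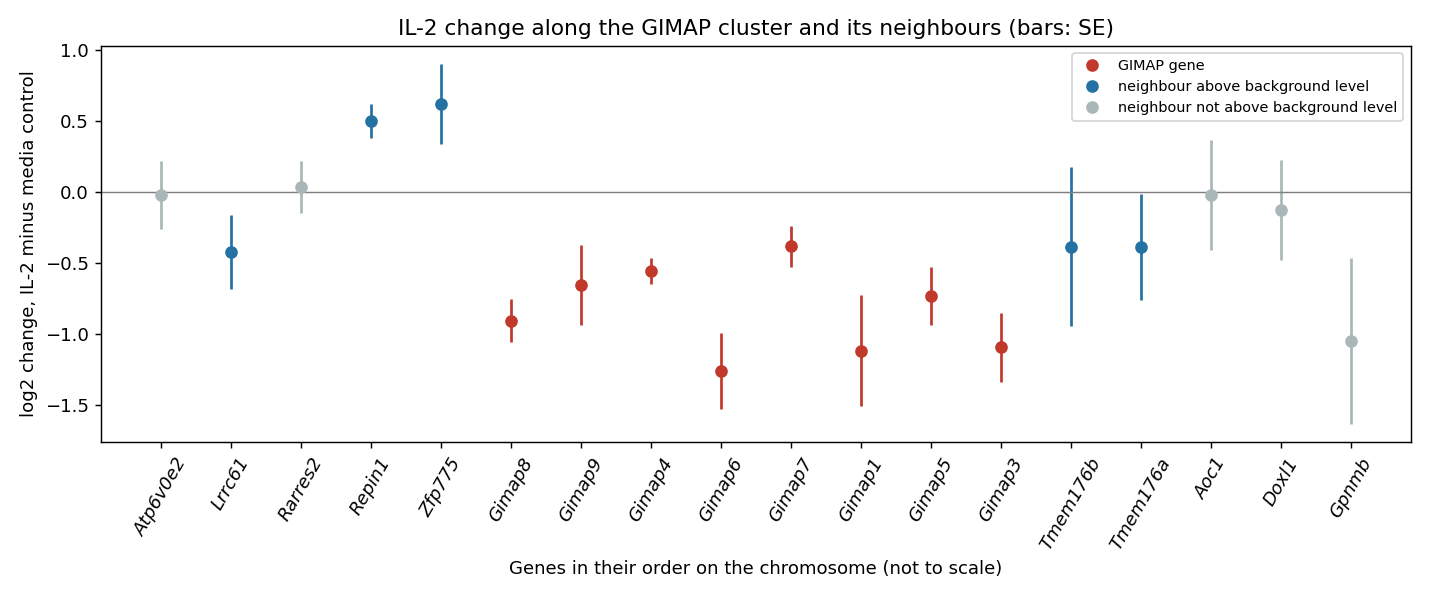
Log2 change with IL-2 from Media Control with its SE (vertical axis) for the 8 GIMAP genes in red and 5 neighbours on each side, in chromosome order (horizontal axis, not to scale), with neighbours above the background level in blue and the others in grey. The red points run from -0.38 to -1.26, and the blue points on either side run from -0.42 to 0.62. The grey points run from -0.12 to 0.04 except Gpnmb at -1.05, within the range of the red points.

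The 250 bases before each start listed by RefSeq were searched on both strands for 6 short motifs of factors known in T cells. All 8 members matched the table, with 9 starts, Gimap8 having a pair. The STAT motif was searched only in the form TTCNNNGAA, and not with other spacings. It was found before a start of Gimap6 and of Gimap8 and is present in 7.02% of the 32851 promoters of the table. The FOXO motif GTAAACA, of factors that keep resting T cell genes active, was found before Gimap3 and is present in 3.17%. The KLF motif CCACACCC (3.20%), the RUNX motif TGTGGTT (4.40%), the ETS motif CCGGAAGT (2.88%) and the GATA motif AGATAAG (2.74%) were not found in the 9 windows. The 3 members with a match are shown 5′ to 3′ from RefSeq on GRCm38.p6, with the matched letters in capitals. Whether a match goes with the changes of a member was not tested. A match is a run of letters and not a measured binding site. The match lies 234 to 226 bases before the start of Gimap6 (window chr6:48708245-48708494, minus strand), 247 to 241 bases before that of Gimap3 (window chr6:48770852-48771101, minus strand) and 47 to 39 bases before the second start of Gimap8, which lies inside the gene (stretch shown chr6:48647304-48647332, plus strand).
Gimap6 window: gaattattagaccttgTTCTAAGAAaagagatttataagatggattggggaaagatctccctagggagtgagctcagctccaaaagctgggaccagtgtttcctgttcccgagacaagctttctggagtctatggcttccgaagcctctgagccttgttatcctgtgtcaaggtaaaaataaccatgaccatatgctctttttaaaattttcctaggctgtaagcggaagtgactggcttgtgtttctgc
Gimap3 window: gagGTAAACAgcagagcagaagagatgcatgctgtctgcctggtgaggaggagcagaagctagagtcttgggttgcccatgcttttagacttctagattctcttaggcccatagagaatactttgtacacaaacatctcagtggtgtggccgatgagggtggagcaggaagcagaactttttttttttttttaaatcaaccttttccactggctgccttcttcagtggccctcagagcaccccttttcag
Gimap8 stretch: aacctctttcTTCCTAGAAacatttggaa

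The GIMAP changes were set beside lists of related genes. Of the ATG8 family, whose proteins are attached to autophagy membranes and include the known partner of Gimap6, IL-2 lowered 4 of 5, Map1lc3a (change -1.04), Gabarap (-0.93), Gabarapl2 (-0.66) and Map1lc3b (-0.64), with adjusted p from 0.000414 to 0.0122. Gabarapl1 had a change of 0.01 (adjusted p = 0.991). The median of the family was -0.66 with IL-2 and -0.53 with IL-4, where 3 were lower. It was -0.36 with IL-7, -0.16 with IL-15, where none was lower, and -0.11 with IL-21. IL-7 lowered Map1lc3a (change -0.73, adjusted p = 0.0498), and IL-21 gave no call. With the block Gabarapl2 was lower with IL-4 (adjusted p = 0.0241), IL-7 (0.0312) and IL-21 (0.0257) as well, and Gabarap with IL-7 (0.00616).

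The median change of 26 measured genes of resting T cells lay below that of the GIMAP genes with each cytokine, a difference that was not tested. IL-2 lowered 17 of 26 and raised none, with a median of -1.62, among them the transcription factor gene Klf2 (change -3.41), the egress receptor gene S1pr1 (-2.94), Dapl1 (-2.61) and the antiproliferative gene Btg2 (-2.41). IL-4 lowered 12, with S1pr1 at -4.36 and Klf2 at -3.59, and IL-21 lowered 9, with Dapl1 at -3.03. IL-7 and IL-15 lowered none, and the medians were -0.72 and -0.29. With the block IL-7 lowered 15, IL-2 23, IL-4 20 and IL-15 0, and IL-21 lowered 20 and raised 1.

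The BCL2 family, which sets the threshold of the cell death that GIMAP proteins have been linked to, moved both ways. IL-2 raised 3 of 14, the survival genes Bcl2 (change 1.72) and Bcl2l1 (1.26) and the death gene Bid (0.66), and lowered 4, the death genes Bcl2l11 (-2.69), Bmf (-1.38) and Bbc3 (-0.67) and the survival gene Mcl1 (-0.65). The median was 0.13. IL-4 (change 1.95, adjusted p = 0.000251) and IL-7 (1.79, adjusted p = 0.00484) raised Bcl2 too. IL-4 also raised Bcl2l1 (0.71, adjusted p = 0.0264) and lowered Bmf (-1.84, adjusted p = 0.00192) and Bbc3 (-1.01, adjusted p = 0.00803). IL-21 lowered Bmf (-1.32, adjusted p = 0.0201) and Bbc3 (-0.80, adjusted p = 0.0364) and raised none. With the block 4 were higher and 5 lower with IL-2, and 3 were higher and 2 lower with IL-7. For IL-4 the block gave 4 higher and 3 lower, and for IL-21 4 higher and 2 lower.

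The interferon-inducible GTPases share with GIMAP proteins a GTP-binding domain and a role in immunity. IL-2 lowered 3 of 12, Gbp6 (change -1.48), Irgm1 (-1.27) and Gbp2 (-1.18), with a median of -0.57. IL-21 lowered Iigp1 (-2.52) and Igtp (-0.55). IL-4 raised Mx1 (1.39) and lowered Gbp2b (-0.86), both from levels under the background, and IL-7 and IL-15 gave no call. With the block 6 were lower with IL-2, 5 were lower and 2 higher with IL-21, and 2 were higher with IL-7. Of 9 housekeeping genes IL-2 raised Hprt (0.58, adjusted p = 0.00272) and Pgk1 (0.44, adjusted p = 0.0309) and lowered none, with a median of 0.12. With the block Gapdh (adjusted p = 0.00235) and Tbp (0.00382) were higher as well.

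**Figure D5:**
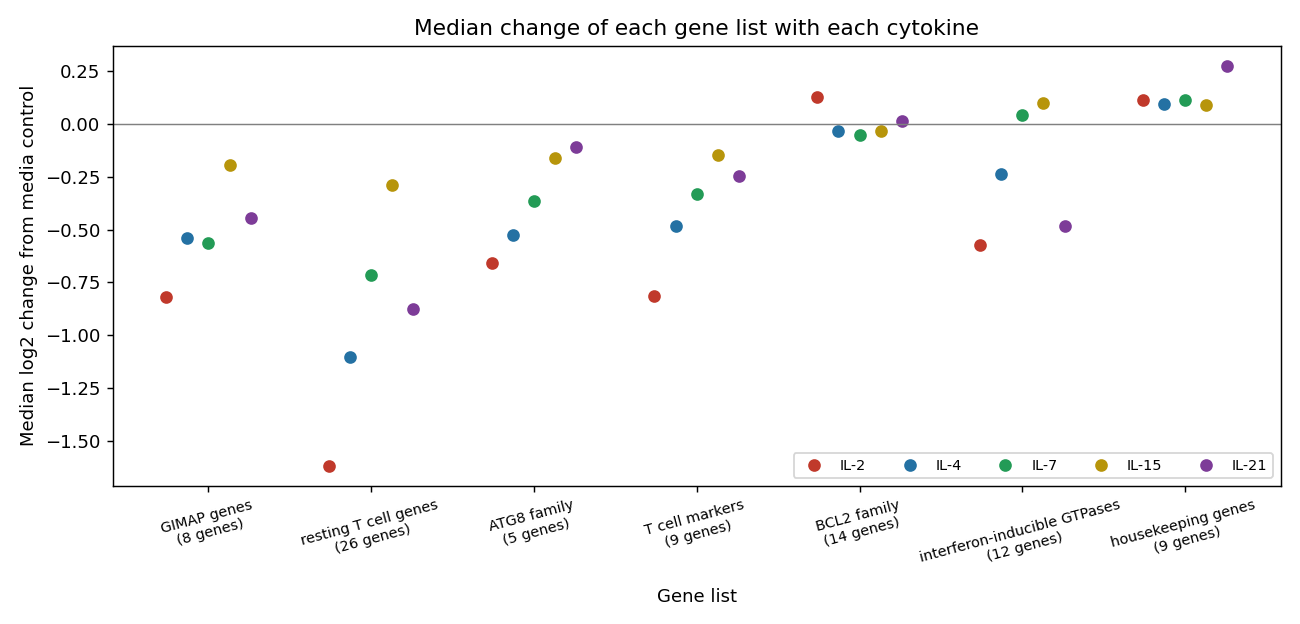
Median log2 change from Media Control (vertical axis) of the GIMAP genes and 6 other lists (horizontal axis, with the number of measured genes) for each cytokine. The GIMAP medians run from -0.82 with IL-2 to -0.19 with IL-15, and those of resting T cell genes from -1.62 to -0.29. Those of the T cell markers run from -0.81 with IL-2 to -0.15 with IL-15, near the GIMAP medians.

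The genes whose pattern was most like the mean GIMAP profile were named from 8670 genes above the background level, by correlation over the 18 arrays after removal of the replicate means. The 10 highest were Armc3, Gabarapl2, Card6, Eif3k, Trim21, Trim12a, Mfsd1, Cd27, Traf3ip3 and Pink1, with r from 0.977 to 0.967. Cd27, a co-stimulatory receptor, read 11.43 in Media Control, 11.09 with IL-15, 10.72 with IL-7, 10.65 with IL-21, 10.22 with IL-4 and 9.07 with IL-2. Its order of groups was that of Gimap3 and Gimap6, with a larger fall with IL-2 (change -2.36, SE 0.24). Gabarapl2, the ATG8 gene named above, came second in likeness (r = 0.975) and read 11.05 in Media Control, 10.40 with IL-2 and 10.92 with IL-15. Pink1, a kinase of mitochondrial quality control, read 10.04, 8.24 and 9.69 in those groups.

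The 5 genes with the most opposite pattern were Iars (r = -0.984), Cyc1, Ndufab1, Mars1 and Psme3 (r = -0.975). Iars and Mars1 encode enzymes that load amino acids onto transfer RNA, and Cyc1 and Ndufab1 encode proteins of the respiratory chain. Iars rose with IL-2 from 9.64 to 11.40 (change 1.76, SE 0.25, adjusted p = 0.000227), the opposite direction to the members. These genes were picked for their likeness, so the values describe them and test nothing.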

How the data were processed

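RNA of 18 samples, 3 in each of 6 groups by their labels, was measured on Affymetrix arrays. The authors deposited 1 log2 signal for each probe set, computed by RMA in Expression Console. The arrays were quantile normalized again, since 3 columns lay on a lower scale. Of 45101 probe sets, 34958 have 1 gene symbol in the annotation used, 932 have several and 9211 are not listed, and those without a single symbol were left out. For each of 18194 genes the probe set with the highest mean was kept. Low genes were kept, and the arrays have no detection calls.

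The tests were made in R 4.3.3 with limma 3.58.1 (6 group means, all 18 arrays, no covariate, 12 residual degrees of freedom, eBayes, two-sided), with Benjamini-Hochberg adjustment over all genes of a comparison and a threshold of 0.05. The fits were tested on simulated data with known changes. The simulated arrays had no effect shared by a replicate number and were not normalized, so this test does not cover those features. Promoters were searched with Python 3.11.15.

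After gene and group means were removed, the correlation across genes was 0.44 or more (median 0.60) in the 45 pairs of arrays that share a replicate number, and 0.38 at most in the 90 other pairs. The labels do not say what a number shares, and the pairing rests on this check. Replicate 3 has another RNA extraction, and the 3' minus 5' signal of actin was 0.16 to 0.34 in RNeasy and 0.38 to 0.50 in TRIzol arrays.

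Named are all 8 members, up to 4 called genes per list and cytokine with the largest change, 5 neighbours on each side, the 10 genes most like and the 5 most unlike the mean member profile, and markers beside which a result stands. The members and lists were chosen with earlier results of these data known. The alternatives were the deposited scale, median centring, the block, each array or replicate left out, the lower arrays left out, other probe sets, a filter on low genes and another variance model.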

Additional observations from a re-analysis of the deposited data

How the results depend on the processing

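The number of GIMAP genes lower with IL-2 was 5. It was 0 on the deposited scale, 1 on that scale with the replicate block and 8 with the replicate block alone. Among genes above background only it was 7, and with replicates or arrays left out it was 2 to 7. With IL-4 it was 3, and 0 on the deposited scale with or without the block, 1 with arrays centred on their medians, 1 without the 3 lower arrays, 1 with all probe sets fitted, 5 with the replicate block and 0 to 3 with replicates or arrays left out. With IL-7 and IL-21 it was 0, and 5 for each with the replicate block, 1 for each among genes above background only, 1 with IL-21 without the 3 lower arrays and 0 to 1 with replicates or arrays left out. The tests called between cytokines numbered 6, and 0 on the deposited scale with or without the block, 2 with median centring, 26 with the replicate block and 0 to 7 with replicates or arrays left out. Members that differed among the 6 groups numbered 4, and 0 on the deposited scale with or without the block, 2 with median centring, 8 with the replicate block and 0 to 4 with replicates or arrays left out (2 without Media Control replicate 2 or 3 or IL-2 replicate 1 or 2). The share of all genes called is given above for the main fit and the replicate block only. The counts in the other settings are thus not set against all genes. The change between the fits with and without the block comes with the pairing given under the processing, and the cause of the other changes was not tested.

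Changes with a sign that turned were all uncalled. On the deposited scale the median change of all genes was shifted up in the IL-4, IL-7 and IL-21 groups. There, with and without the block, the turned changes with IL-21 were 0.0139 for Gimap1, 0.12 for Gimap4, 0.0891 for Gimap5 and 0.16 for Gimap8. With IL-4 they were 0.0768 for Gimap4, 0.40 for Gimap7 and 0.27 for Gimap9, and with IL-7 0.0725 for Gimap4 and 0.14 for Gimap9. The second probe set of Gimap7 had 0.0651 for IL-4, -0.0253 for IL-7 and -0.10 for IL-21. Gimap7 had -0.0078 with IL-7 and -0.0435 with IL-21 as the mean of its probe sets, and -0.0629 with IL-7 and -0.0562 with IL-21 without the 3 lower arrays, where Gimap9 had -0.0048 with IL-15. With replicates or arrays left out, Gimap7 ranged from -0.30 to 0.0669 for IL-4, -0.0956 to 0.12 for IL-7 and -0.0576 to 0.13 for IL-21, and with IL-15 Gimap1 ranged from -0.69 to 0.0714, Gimap6 from -0.34 to 0.0443 and Gimap9 from -0.22 to 0.24. No called change turned its sign in any alternative.

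With 3 arrays per group, a change of the size seen with IL-7 or IL-21 passed or missed the threshold with the treatment of the replicates. No detection calls exist, so the background level is an estimate from genes of other tissues.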
